A study of Homo sapiens with 4 samples.

Results

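The transcripts described here are 10 non-coding genes that carry small nucleolar RNAs (snoRNAs) in their introns: GAS5 and the snoRNA host genes SNHG1, SNHG3, SNHG5, SNHG6, SNHG7, SNHG8, SNHG12, SNHG15 and SNHG16. They were taken by symbol from a table of 20510 genes, and all 10 were found. The libraries came from K1, a human cell line labelled as thyroid cancer, in 2 groups of 2 libraries each: shCtrl, with a control short hairpin RNA, and shTBX3, with one that targets TBX3, a transcription factor of the T-box family. Both groups were grown in serum-supplemented medium, and total RNA was the starting material for sequencing on the BGISEQ-500. Which kinds of RNA were kept in the libraries cannot be read from the values used here. The labels do not say whether the duplicates are separate cultures, so the p-values speak only of the spread between libraries, which may be technical. Values are FPKM, fragments per kilobase of transcript, scaled to the total of mapped fragments, which allows levels of different genes to be compared per length.

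Most human snoRNAs are not transcribed from promoters of their own but are cut out of introns after splicing. Box C/D snoRNAs (SNORD genes) guide the 2′-O-methylation of ribosomal RNA, and box H/ACA snoRNAs (SNORA genes) guide its pseudouridylation. The spliced exons of the genes described here are annotated as non-coding. Several of these transcripts begin with a terminal oligopyrimidine tract (5′ TOP), like the mRNAs of ribosomal proteins, and GAS5 is a textbook substrate of nonsense-mediated decay, the pathway that removes transcripts with early stop codons. A change in the level of a host in bulk RNA cannot separate fewer cells that express it from less RNA per cell.

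The start regions are printed because the tract that marks 5′ TOP transcripts would lie there, with GAS5 as an example that held none at its annotated start. The set of RefSeq promoters (GRCh38.p14) used here gave 1 promoter for each of 8 of the 10 genes. SNHG6 and SNHG15 were not among those searched. Windows of 300 bases (250 before and 50 after the start) were searched. The printed windows run 5′ to 3′ from 40 bases before to 20 bases after the start. Capitals mark the letters TATAA in the 50 bases before the start, and a run of at least 5 pyrimidines (C or T) that begins with C within 10 bases of it, both on the gene's own strand.
SNHG12: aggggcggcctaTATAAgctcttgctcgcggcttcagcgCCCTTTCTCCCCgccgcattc
SNHG5: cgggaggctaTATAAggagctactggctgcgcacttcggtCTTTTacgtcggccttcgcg
SNHG7: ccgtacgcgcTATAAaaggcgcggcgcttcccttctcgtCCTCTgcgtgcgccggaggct
SNHG8: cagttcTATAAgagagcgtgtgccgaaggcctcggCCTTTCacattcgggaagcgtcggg
SNHG16: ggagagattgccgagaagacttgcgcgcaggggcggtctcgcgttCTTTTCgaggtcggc
GAS5: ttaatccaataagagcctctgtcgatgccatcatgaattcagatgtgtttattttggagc
These windows lie at chr1:28581854-28581913 (SNHG12, minus strand), chr6:85678714-85678773 (SNHG5, minus strand) and chr9:136728165-136728224 (SNHG7, minus strand). The others lie at chr4:118278722-118278781 (SNHG8, plus strand), chr17:76557724-76557783 (SNHG16, plus strand) and chr1:173869026-173869085 (GAS5, minus strand).

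A pyrimidine run of this kind was found at 5 of the 8 starts (62.5%), against 31.4% of all 35116 starts in the table, 58.3% of the starts of 12 other non-coding snoRNA hosts and 77.4% of 84 starts of ribosomal protein genes. The longest, of 12 bases, was that of SNHG12. TATAA was found before 4 of the 8 starts, those of SNHG5, SNHG7, SNHG8 and SNHG12, against 4.74% of all starts, 16.7% of those of the other non-coding hosts and 10.7% of those of ribosomal protein genes. With the first transcribed base as position 0, it began between position −34 and position −28. GAS5, SNHG1 and SNHG3 had neither feature at the start that RefSeq now annotates. Only 1 start of each gene was searched, so a tract at another start would have been missed. The search therefore does not show that transcripts of GAS5 lack a 5′ TOP. Of other sequences searched in the whole window, GGTGTGA on either strand, the core of a T-box site, was in none of the 8 windows and in 3.45% of all starts. CACGTG, the E-box of MYC, was in 1 window (SNHG7; 7.26% of all starts), and CCAAT on either strand in 2 (GAS5 and SNHG5; 34.6% of all starts). These matches describe letters and not bound sites.

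TBX3 itself, the check of the hairpin, stood at 48.94 and 54.77 FPKM in shCtrl, against 27.81 and 36.99 in shTBX3, a difference of −0.67 ± 0.17 (SE) on the log2 scale that did not pass limma's threshold (adjusted p = 0.428). Here and throughout, a log2 fold change is shTBX3 minus shCtrl on log2(FPKM + 1), fitted by limma, a linear model that shares variance between genes, with its p adjusted over all genes tested and a threshold of 0.05. The label of the line was set against markers: TG, TSHR, NKX2-1 and FOXE1 of thyroid were at 0.31 FPKM or below in every library, PAX8 and SLC5A5 at 3.28 or below, and the intestinal factor CDX2 between 116.78 and 147.75. The steps in the values of short genes correspond to between 8540000 and 8760000 fragments a library. At that depth the lowest value of any host, 18.10 FPKM, would rest on about 151 fragments of a transcript of 1000 nucleotides, a counting error of about 8.15%.

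All 10 host transcripts passed the filter for testing (FPKM 1 or more in 2 or more libraries) and stood well above the median tested gene, whose mean FPKM was 9.16. By mean FPKM over the 4 libraries the order was GAS5 (128), SNHG1 (124), SNHG8 (93.9), SNHG6 (63.6), SNHG7 (43.5), SNHG3 (42.9), SNHG16 (41.4), SNHG12 (36.6), SNHG5 (32.7) and SNHG15 (22.4). GAS5 lay above 96.3% of the 13924 genes tested and SNHG15 above 73.7%. Of the 9 pairs of neighbours in this order 7 had overlapping libraries, so the ranges of GAS5, SNHG1 and SNHG8, and of each next pair from SNHG7 down to SNHG15, were not separate across libraries. Within each of the 4 libraries, however, GAS5 was above SNHG8 and SNHG5 above SNHG15. SNHG6 stood apart from both of its neighbours. GAS5, SNHG1 and SNHG8 together made up between 52.7% and 58.0% of the summed FPKM of the class in each library.

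**Figure D1:**
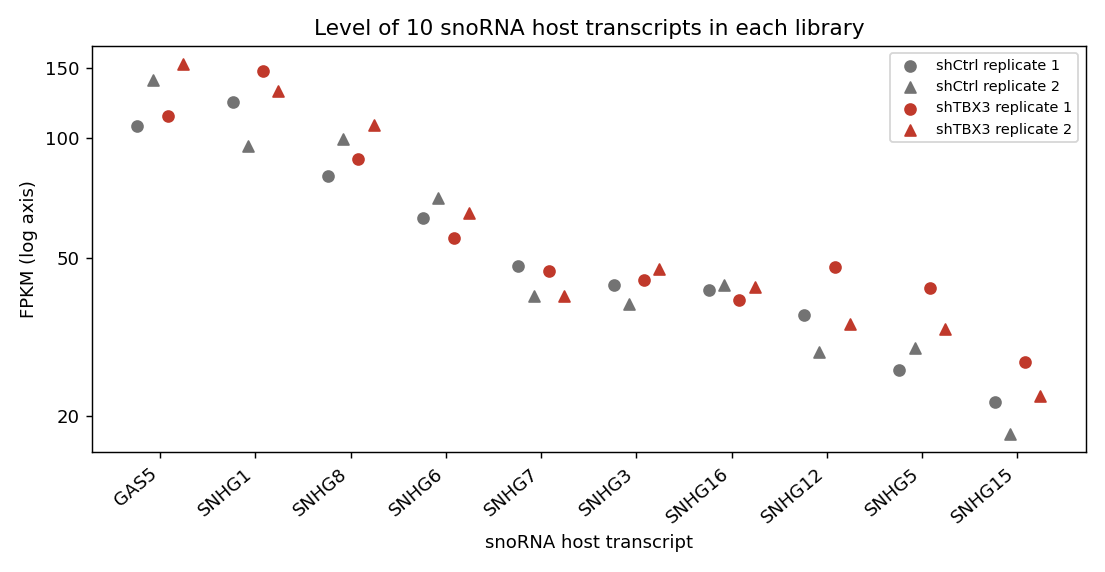
FPKM (log axis) of the 10 snoRNA host transcripts, ordered by mean level, each library a point, with shCtrl in grey and shTBX3 in red; circles are replicate 1 and triangles replicate 2. GAS5 lies between 107.05 and 152.96 and SNHG15 between 18.10 and 27.34, and in GAS5 and SNHG8 both triangles lie above both circles.

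The main comparison asked how the hosts differ between the hairpin against TBX3 and the control hairpin. None of the 10 passed limma's adjusted p of 0.05, a threshold that 0.18% of the genes tested passed (25 of 13924, or 12 without shTBX3 replicate 1 and 55 without shCtrl replicate 1). The log2 fold change was positive for 7 hosts and negative for 3, with a median of 0.14, where the median of all genes tested was −0.01 and 46.9% of them were positive. In 4 hosts (SNHG1, SNHG3, SNHG5 and SNHG15) both shTBX3 values lay above both shCtrl values, an order found in 14.8% of all genes tested. No host had both shTBX3 values below both shCtrl values, against 19.7% of all genes. The summed FPKM of the class was 589 and 603 in shCtrl, against 651 and 675 in shTBX3. The mean of these sums was 596 ± 10.1 for shCtrl and 663 ± 16.7 for shTBX3 (SD, n = 2 each), a ratio of 1.11.

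SNHG5 hosts SNORD50A and SNORD50B, the U50 snoRNAs, and had the largest fitted difference among the hosts. It stood at 26.17 and 29.71 FPKM in shCtrl, against 42.00 and 33.09 in shTBX3. Both shTBX3 libraries were above both shCtrl libraries, but the shTBX3 values were further from each other than the nearer of them was from shCtrl. The means were 27.9 ± 2.50 and 37.5 ± 6.30 (SD, n = 2 each), and the log2 fold change was 0.41 ± 0.16 (SE), with a 95% confidence interval from 0.01 to 0.80. The unadjusted p of SNHG5 was 0.0443, the only one of the 10 under 0.05, where 6.67% of all genes tested were under that limit (2.03% with the higher level in shTBX3). Its limma adjusted p was 0.721.

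SNHG1, first described as the host of U22, carries C/D snoRNAs in its introns. Its FPKM was 123.22 and 95.64 in shCtrl, against 146.98 and 130.89 in shTBX3. All shTBX3 values were the higher, the nearest pair being 123.22 and 130.89. The log2 fold change of SNHG1 was 0.35 ± 0.16 (95% confidence interval −0.04 to 0.74, limma adjusted p = 0.801).

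SNHG15, the host of SNORA9, was the lowest of the class, at 21.69 and 18.10 FPKM in shCtrl, against 27.34 and 22.47 in shTBX3. The groups were apart by less than 1 FPKM, with a log2 fold change of 0.31 ± 0.16 (95% confidence interval −0.08 to 0.70, limma adjusted p = 0.841). SNHG12, which carries 3 H/ACA snoRNAs and SNORD99, stood at 35.85 and 29.00 in shCtrl, against 47.46 and 34.10 in shTBX3. Its groups overlapped, since shTBX3 replicate 2 was below shCtrl replicate 1. SNHG12 had a log2 fold change of 0.31 ± 0.20 (95% confidence interval −0.17 to 0.79, limma adjusted p = 0.884). It was 0.08 without shTBX3 replicate 1 and 0.54 without shTBX3 replicate 2.

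SNHG3 hosts SNORA73A and SNORA73B, the U17 snoRNAs, which take part in the cleavage of the ribosomal RNA precursor. It stood at 42.66 and 38.35 FPKM in shCtrl, against 43.92 and 46.86 in shTBX3, with the groups apart and a log2 fold change of 0.16 ± 0.13 (95% confidence interval −0.15 to 0.47, limma adjusted p = 0.923). SNHG3 overlaps the start of RCC1 on the same strand, so the split of shared fragments between them is uncertain. RCC1, a chromatin-bound exchange factor of the GTPase RAN, was at 157.65 and 122.47 in shCtrl, against 151.05 and 138.31 in shTBX3.

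**Figure D2:**
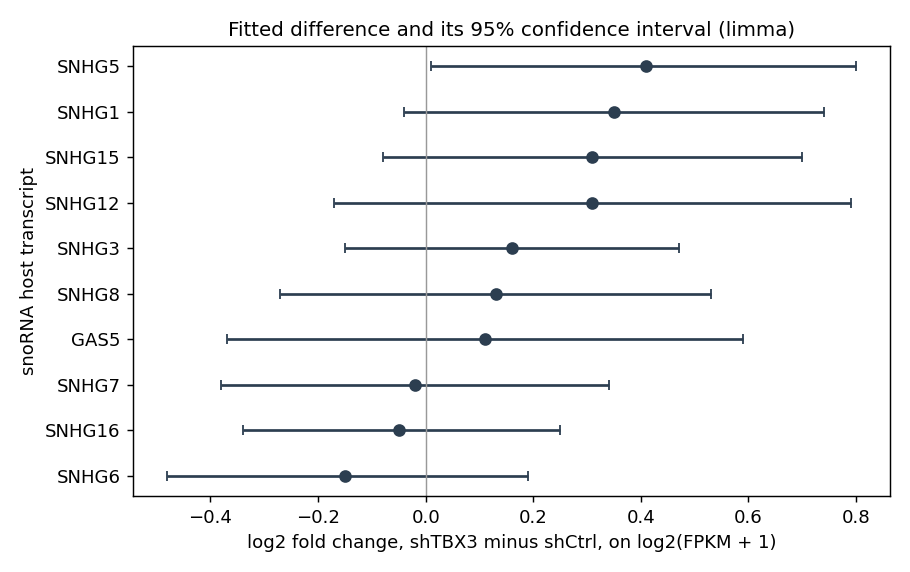
Fitted log2 fold change (shTBX3 minus shCtrl, on the log2(FPKM + 1) scale) of each host transcript, with the 95% confidence interval from limma as bars. SNHG5 has the largest value, 0.41, with an interval from 0.01 to 0.80, and the intervals of the other 9 hosts include 0.

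GAS5, named for its accumulation in growth-arrested cells, had the highest mean. Its FPKM was 107.05 and 139.38 in shCtrl, against 113.54 and 152.96 in shTBX3. The groups overlapped, and the higher value of each group was that of replicate 2. The means were 123 ± 22.9 and 133 ± 27.9 (SD, n = 2 each), with a log2 fold change of 0.11 ± 0.20 (95% confidence interval −0.37 to 0.59, limma adjusted p = 0.975). The sign of the GAS5 difference depended on the libraries, at −0.08 without shCtrl replicate 1 and −0.10 without shTBX3 replicate 2. SNHG8, the host of SNORA24, followed the same order, at 80.14 and 99.30 in shCtrl, against 88.51 and 107.47 in shTBX3 (log2 fold change 0.13 ± 0.16, 95% confidence interval −0.27 to 0.53, limma adjusted p = 0.961). Without shCtrl replicate 1 it was −0.03 and without shTBX3 replicate 2 it was −0.01.

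The 3 hosts with a negative fitted difference were SNHG6, SNHG7 and SNHG16, and the groups of each overlapped. SNHG6, the host of SNORD87, stood at 62.92 and 70.75 FPKM in shCtrl, against 55.93 and 64.75 in shTBX3 (log2 fold change −0.15 ± 0.14, 95% confidence interval −0.48 to 0.19, limma adjusted p = 0.931). SNHG7, the host of SNORA17A, was at 47.59 and 39.99 against 46.33 and 40.02, with a log2 fold change of −0.02 and a 95% confidence interval from −0.38 to 0.34. It turned to 0.10 without shCtrl replicate 1, to 0.08 without shTBX3 replicate 2 and to 0.0033 under median-ratio scaling. SNHG16, the host of the SNORD1 snoRNAs, varied least, by 1.09-fold between its highest and lowest library. Its values were 41.45 and 42.82 in shCtrl, against 39.26 and 42.26 in shTBX3, with a log2 fold change of −0.05 and a 95% confidence interval from −0.34 to 0.25. Without shTBX3 replicate 1 it was 0.0044.

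In GAS5, SNHG6, SNHG7 and SNHG8 the libraries of a group differed from each other by more than the group means did, and the hosts did not vary together. The labels number the replicates without saying that a number marks a shared culture or day. In 4 hosts (GAS5, SNHG6, SNHG8 and SNHG16) replicate 2 was the higher in both groups, and in 4 others (SNHG1, SNHG7, SNHG12 and SNHG15) it was the lower in both, where 33.2% and 32.3% of all genes tested showed these orders. SNHG3 and SNHG5 went opposite ways in the groups. Both replicate 2 values lay above both replicate 1 values in 4 hosts (GAS5, SNHG6, SNHG8 and SNHG16; 22.2% of all genes tested) and below them in 2 (SNHG7 and SNHG12; 23.2%). GAS5 in replicate 2 was at 1.30 times replicate 1 in shCtrl and 1.35 times in shTBX3, while SNHG12 was at 0.809 and 0.718 times. A ratio between members within a library does not depend on the scaling of the library. The ratio of GAS5 to SNHG1 was 0.869 and 1.46 in shCtrl, against 0.772 and 1.17 in shTBX3, so GAS5 was the less abundant of the pair in both replicate 1 libraries and the more abundant in both replicate 2 libraries. SNHG8 stood at 2.24 and 3.42 times SNHG12 in shCtrl and at 1.86 and 3.15 times in shTBX3. The ratio of GAS5 to SNHG8 was steadier, at 1.34 and 1.40 in shCtrl, against 1.28 and 1.42 in shTBX3. What the replicate number stands for in these values was not tested.

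**Figure D3:**
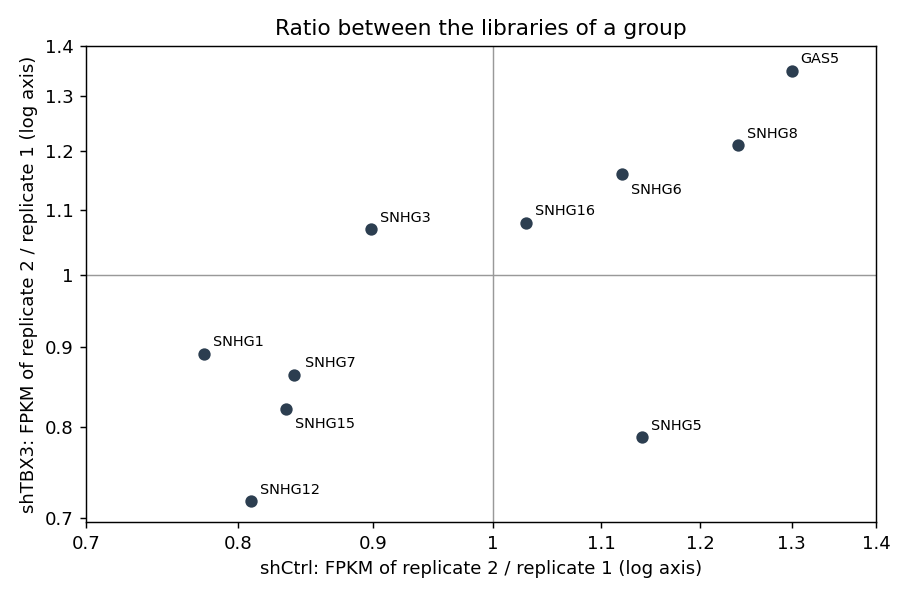
FPKM of replicate 2 divided by that of replicate 1 in the shCtrl libraries (x, log axis) and in the shTBX3 libraries (y, log axis), each point a host transcript and the lines at 1. GAS5 lies at 1.30 and 1.35 in the upper right and SNHG12 at 0.809 and 0.718 in the lower left, while SNHG3 and SNHG5 lie off the diagonal.

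The intronic snoRNAs of these hosts were followed in the same table. Of 35 snoRNA symbols listed for the 10 genes, 29 were in the table, 20 were above 0 in all 4 libraries and 24 passed the filter. None of the 24 passed limma's threshold over all genes, 15 log2 fold changes were positive and 9 negative, and their median was 0.22, where the other 174 snoRNA and small Cajal body RNA genes tested had a median of 0.00. An unadjusted limma p under 0.05 was reached by 5 of the 24 and by 42 of the other 174, against 6.67% of all genes tested. Of the other 174 limma called 4 higher and 1 lower, where 0.18% of all genes tested were called. The 5 include SNORD1B, which was at 0 in both shCtrl libraries. SnoRNAs listed at 0 in a group enter the test only through the other group, so these counts describe the entries that passed and not the whole set. Values of these short genes moved in steps of whole fragments: in every library at least 87.5% of the hosted snoRNA values at up to 6 fragments came out whole within 0.05, where an even spread would give 10%. The entries rested on few fragments, and mature snoRNA and unspliced host RNA cannot be told apart in them. They are therefore no measure of the level of mature snoRNA. Summed over the hosted snoRNAs there were 171 and 146 fragments in shCtrl, against 218 and 188 in shTBX3. Exact Poisson 95% intervals, which cover counting error only, ran from 146 to 199 and from 123 to 172 in shCtrl and from 190 to 249 and from 162 to 217 in shTBX3. The summed FPKM of the other entries was also higher in both shTBX3 libraries, but by a smaller proportion than that of the hosted snoRNAs. Of the other 174 tested, 96 were positive and 78 negative. The summed FPKM of the hosted snoRNAs was 317 and 266 in shCtrl, against 451 and 374 in shTBX3. That of the 222 other snoRNA and small Cajal body RNA entries was 4562 and 4835, against 5671 and 5026.

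By host, the snoRNAs of GAS5 summed to 33 and 27 fragments in shCtrl and to 43 and 50 in shTBX3, and those of SNHG1 to 43 and 39 against 56 and 46. Both shTBX3 sums were the higher in each case, within overlapping intervals. The snoRNAs of SNHG12 gave 43 and 30 fragments in shCtrl, against 56 and 35 in shTBX3, with the same order of the 4 libraries as SNHG12 itself. For SNHG3 the sums were 26 and 26 against 32 and 24. SNHG5, with the largest fitted difference among the hosts, had snoRNA sums of 2 and 3 against 8 and 1. For SNHG15 they were 10 and 9 against 6 and 14. In SNHG3, SNHG5 and SNHG15 the snoRNA sums of the groups thus overlapped, although the groups of the host itself were apart. The sums were 5 and 2 against 7 and 2 for SNHG6, and 8 and 10 against 10 and 10 for SNHG8. The snoRNAs of SNHG7 and SNHG16 gave at most 3 fragments in any library and those of SNHG12 at least 30. However, the table held 1 of the 3 snoRNA symbols listed for SNHG7 and 2 of 3 for SNHG16, against 4 of 4 for SNHG12.

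The 20 found in every library were SNORD44, SNORD47, SNORD76, SNORD79 and SNORD80 of GAS5, SNORD22 and SNORD25 to SNORD30 of SNHG1, SNORA73A and SNORA73B of SNHG3, SNORA44, SNORA61 and SNORA16A of SNHG12, and SNORD87, SNORA24 and SNORA9 of SNHG6, SNHG8 and SNHG15. SNORA61, from SNHG12, had the most fragments of these, at 31.58 and 24.59 FPKM in shCtrl, against 39.01 and 29.79 in shTBX3. SNORD76, from GAS5, stood at 29.19 and 28.42 in shCtrl, against 34.37 and 59.98 in shTBX3 (log2 fold change 0.64 ± 0.25, limma adjusted p = 0.721). SNORD29, from SNHG1, was at 12.43 and 8.07 against 20.64 and 24.43, with a log2 fold change of 1.09 ± 0.22 (limma adjusted p = 0.229). These values of SNORD29 rest on about 3, 2, 5 and 6 fragments. SNORD22 of the same host, with about 20, 18, 18 and 16 fragments, stood at 26.39 and 23.12 against 23.66 and 20.74. Of the 7 snoRNAs of SNHG1 tested 4 were positive and 3 negative, and of the 6 of GAS5 4 were positive and 2 negative. The negative entries of GAS5, SNORD44 and SNORD74, held at most 2 fragments in any library, so their signs say nothing of a direction. SNORD27 of SNHG1 was at 6.65 and 12.95 in shCtrl, against 3.31 and 6.54 in shTBX3, on about 2, 4, 1 and 2 fragments, so that shCtrl replicate 1 and shTBX3 replicate 2 held the same number.

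**Figure D4:**
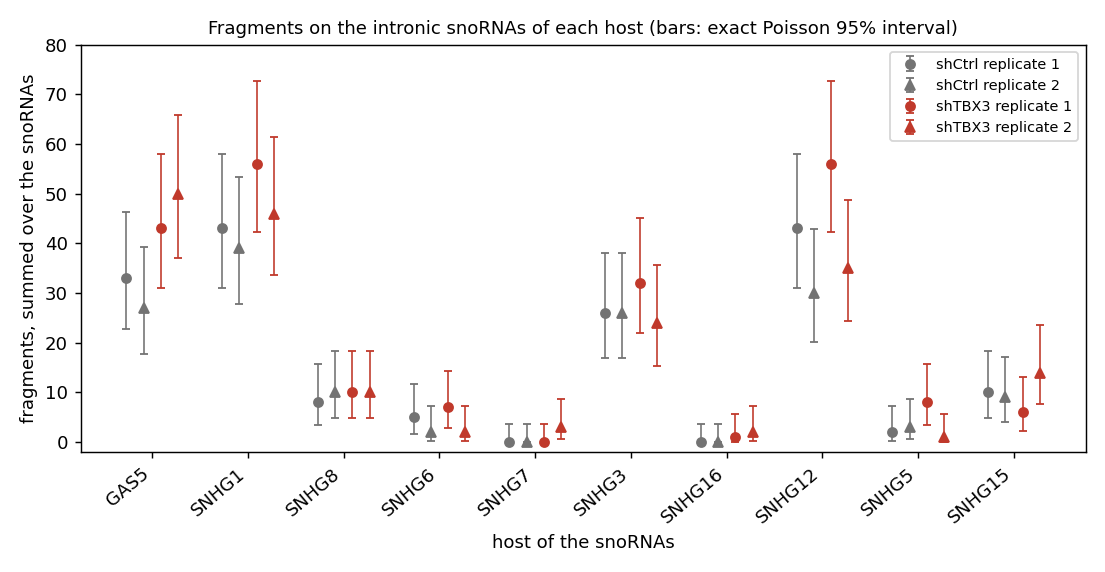
Fragments summed over the intronic snoRNAs of each host, each library a point, with shCtrl in grey and shTBX3 in red; circles are replicate 1, triangles replicate 2, and bars the exact Poisson 95% interval of each sum. GAS5, SNHG1, SNHG3 and SNHG12 hold most of the fragments, and SNHG7 and SNHG16 stay at or below 3.

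SNORD1B of SNHG16 is an example of an entry that passed the filter only through shTBX3. It was listed at 0 in both shCtrl libraries and at 2.38 and 2.34 FPKM in shTBX3, about 1 fragment in each, and its p is not given because the spread of such values is set by the steps of whole fragments. Its sequence (GRCh37, chr17:74557191-74557274, plus strand, in an intron of SNHG16) is printed with a C box motif, TGATGA, and a D box motif, CTGA, in capitals. SNORA73B (chr1:28835071-28835274, plus strand, in an intron of SNHG3) is printed beside it as an example of the other class, with the ACA near the 3′ end that marks this class in capitals. SNORA73B stood at 7.78 and 6.62 FPKM in shCtrl, against 8.72 and 4.78 in shTBX3, and shares much of its sequence with SNORA73A, so the split between these entries is uncertain.
SNORD1B: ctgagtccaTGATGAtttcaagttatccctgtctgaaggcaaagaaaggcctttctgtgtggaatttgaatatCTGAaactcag
SNORA73B: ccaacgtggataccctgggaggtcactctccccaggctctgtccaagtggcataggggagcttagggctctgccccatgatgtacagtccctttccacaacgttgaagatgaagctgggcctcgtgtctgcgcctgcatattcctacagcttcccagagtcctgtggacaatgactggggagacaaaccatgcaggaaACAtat

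On GRCh37 the hosts lie on 8 chromosomes. GAS5 spans chr1:173827697-173838020 (minus strand), SNHG12 chr1:28905050-28909644 (minus strand), SNHG3 chr1:28832492-28837404 (plus strand) and SNHG1 chr11:62619450-62623425 (minus strand) in the GENCODE annotation. SNHG5 spans chr6:86360209-86388650 (minus strand), SNHG7 chr9:139615818-139622636 (minus strand), SNHG8 chr4:119199858-119206471 (plus strand), SNHG15 chr7:45022618-45026560 (minus strand), SNHG16 chr17:74553809-74667067 (plus strand) and SNHG6 chr8:67832796-67838633 (minus strand). Several share their start or their span with another gene, and whether the counting used strand is not given in the sources used here. SLC3A2, the heavy chain of amino acid transporters, starts 51 bp from SNHG1 on the other strand. It stood at 173.30 and 166.04 FPKM in shCtrl, against 162.94 and 150.55 in shTBX3, a log2 fold change of −0.11 ± 0.12 where that of SNHG1 was 0.35. ZBTB37, a zinc finger gene, starts 800 bp from GAS5 on the other strand and was at 2.14 and 1.47 against 1.57 and 1.49. GAS5-AS1, which overlaps GAS5 on the other strand, was at 2.48 and 1.21 against 3.71 and 1.92, and TRNAU1AP, a selenocysteine tRNA factor that overlaps SNHG12, at 9.50 and 8.54 against 11.64 and 9.07. GAS5-AS1 and TRNAU1AP were thus at far lower FPKM than the hosts they overlap.

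The other non-coding snoRNA hosts gave a mixed picture. Of the 16 tested, 9 log2 fold changes were positive and 7 negative, with a median of 0.08 and 0 called by limma over all genes (0 at an unadjusted p under 0.05). The most abundant was LRRC75A-AS1, at 444.74 and 529.44 FPKM in shCtrl, against 468.33 and 600.00 in shTBX3, with replicate 2 the higher in both groups as in GAS5. ZFAS1 stood at 154.89 and 151.28 against 114.28 and 134.45, the reverse order of SNHG1 and SNHG5 (log2 fold change −0.30 ± 0.13, limma adjusted p = 0.774). DANCR was at 129.00 and 102.25 against 123.63 and 130.43. Protein-coding snoRNA hosts outside the ribosome were closer to 0: of 20 tested, 13 were positive and 7 negative with a median of 0.05, and 0 were called (0 at an unadjusted p under 0.05 by limma). Among them the ribosomal scaffold RACK1 stood at 1874.51 and 1796.64 against 1857.59 and 1949.70, the elongation factor EEF2 at 1555.16 and 1773.67 against 1603.96 and 1840.86, and the helicase EIF4A1 at 692.66 and 676.79 against 843.53 and 729.31.

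Proteins that package snoRNAs were also measured. Of the 8 core snoRNP proteins tested, 6 were positive and 2 negative, with a median log2 fold change of 0.18 and 0 called (0 at an unadjusted p under 0.05 by limma). Fibrillarin (FBL), the methyltransferase of C/D particles, stood at 216.85 and 193.24 FPKM in shCtrl, against 250.77 and 231.36 in shTBX3, with the groups apart (log2 fold change 0.23 ± 0.12, limma adjusted p = 0.850). NOP10, an H/ACA protein, was at 116.85 and 109.72 against 122.57 and 126.73, and its partner NHP2 at 125.95 and 106.17 against 111.80 and 117.92. Of 11 assembly factors 8 were positive and 3 negative (median 0.08). The most abundant of them, RUVBL2, an ATPase of the assembly complex, was at 148.74 and 138.13 against 159.37 and 161.49, and the nucleolar proteins TCOF1 and NOLC1 had overlapping groups. NOP56 and DKC1 are counted both here and among the coding hosts.

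Factors of nonsense-mediated decay were positive in 17 and negative in 5 of 22 members tested, with a median of 0.12 and 0 called (0 at an unadjusted p under 0.05 by limma). RNPS1, which joins the exon junction complex, stood at 163.35 and 155.28 FPKM against 142.11 and 146.49, its core helicase EIF4A3 at 72.29 and 72.60 against 98.22 and 68.63, and the release factor ETF1 at 58.36 and 48.01 against 74.34 and 53.86. Of 6 coding transcripts known as substrates of the pathway, 3 were positive and 3 negative, with a median of 0.09 and 0 called (1 at an unadjusted p under 0.05 by limma). ATF4, a stress transcription factor, was at 275.93 and 371.51 against 243.86 and 417.41, TBL2 at 15.68 and 15.50 against 15.94 and 14.83, and the stress gene GADD45B at 15.06 and 9.83 against 20.04 and 14.37.

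Genes that share the 5′ TOP feature, or act on it, had medians near 0. Of 81 ribosomal protein genes tested 60 were positive and 21 negative, with a median of 0.05 and 0 called (1 at an unadjusted p under 0.05 by limma). RPS2, the most abundant, stood at 5012.77 and 5448.69 FPKM against 5836.61 and 7083.87. Of 15 regulators of TOP translation and mTOR signalling 8 were positive and 7 negative (median 0.03), and 0 were called (0 at an unadjusted p under 0.05 by limma). MYC, a driver of ribosome synthesis, was at 106.43 and 130.64 against 104.58 and 148.61, EIF4EBP1, a translation repressor controlled by mTOR, at 122.11 and 138.69 against 129.77 and 168.02, and LARP1, which binds TOP mRNAs, at 96.96 and 88.15 against 98.51 and 90.21. In MYC and EIF4EBP1, as in GAS5 and SNHG8, replicate 2 was the higher in both groups.

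GAS5 folds into a hairpin that binds the glucocorticoid receptor, which made the receptor and its targets a set of interest. NR3C1, the gene of that receptor, was at 0.06 FPKM or below in every library, named here after its values were seen. Of 7 genes of this list tested 4 were positive and 3 negative, with a median of 0.06 and 0 called (1 at an unadjusted p under 0.05 by limma). FKBP5, a chaperone of the receptor, was at 14.74 and 11.56 FPKM against 18.70 and 14.66, the clock gene PER1 at 5.53 and 6.95 against 5.43 and 7.81, and the kinase SGK1 at 7.47 and 9.90 against 5.56 and 5.37. SGK1 had its groups apart in the other direction from SNHG5, with a log2 fold change of −0.57 ± 0.17 (limma adjusted p = 0.542).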

How the data were processed

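RNA of 4 libraries (2 shCtrl, 2 shTBX3) was measured. The deposited FPKM were computed by the authors. The submitters' processing notes list Bowtie2, HISAT and RSEM, and the build hg19. Versions, roles, strand use and filters were not given in the sources used here.

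The 13924 genes at FPKM 1 or more in 2 or more libraries were fitted as log2(FPKM + 1) by limma 3.58.1 under R 4.3.3 (eBayes with a trend, residual df 2, prior df 4.11), two-sided, with Benjamini-Hochberg adjustment over all genes and a threshold of 0.05. The log2 scale with a pseudocount understates changes of low genes. The fit was also run on simulated data, with changes larger than any fitted for the hosts. That run is therefore no check of the power to find differences as small as theirs. The members, lists and rules were chosen with earlier results of these data known. The rule named all 10 hosts and, in each list, called genes and the 3 with the highest mean FPKM. It named the intronic snoRNAs above 0 in all libraries, and those given with values, GAS5-AS1, TRNAU1AP and RCC1 were picked after values were seen. Fragment numbers came from the steps in microRNA genes, with RefSeq lengths less a fitted 37 nucleotides. Of their values at up to 6 fragments, 78.9% to 84.1% were whole within 0.05, against 10% if evenly spread. The depths and the 37 nucleotides were chosen from these same microRNA values, so that share is no check of them. GENCODE release 44 on GRCh37 gave positions. Python 3.11.15 with pandas 2.3.3 and scipy 1.17.1 was used. Alternatives were pseudocounts of 0.1 and 0.5, other filters, scalings and variance models, the replicate number as a block, and each library left out.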

Additional observations from a re-analysis of the deposited data

How the results depend on the processing

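No host passed the limma threshold under any of 14 alternative settings, with adjusted p between 0.217 and 1. Of 140 refitted host values, 132 kept their direction and 8, in 4 hosts, did not: GAS5 ran from −0.10 to 0.32, SNHG8 from −0.03 to 0.28, SNHG7 from −0.14 to 0.10 and SNHG16 from −0.10 to 0.0044 on the log2 scale as single libraries were left out, and SNHG7 was 0.0033 under median-ratio scaling. The filters, the variance models and the replicate block leave a fold change as it was, so they could not turn a direction. Their values are among the 132 by construction, and that count is no measure of how firm the directions are. The median of the hosts ran from 0.10 to 0.19 as libraries were left out, and the ratio of their summed FPKM from 1.09 to 1.13. The number of genes called by limma, 25, ran from 12 to 55 with a library left out, and was 7 with a pseudocount of 0.1 and 0 with no filter (1249 at an unadjusted p under 0.05). With the replicate block it was 132 (34 higher, 98 lower). Deviations of same-numbered libraries from their group means correlated at 0.26 over genes, but the labels do not say that a number pairs libraries. The cause of these shifts was not tested. No scaling moved the median of all genes by more than 0.1. With 2 libraries a group, 9 of 10 intervals of the hosts included 0.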

Other observations

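Further snoRNA host genes and snoRNP proteins, chosen after their values were seen, gave these FPKM. SNHG19 was at 23.22 and 22.60 in shCtrl, against 24.96 and 30.05 in shTBX3, with the groups apart (log2 fold change 0.25, limma adjusted p = 0.866). SNHG4 (41.65 and 38.27, against 37.76 and 38.37) and SNHG17 (26.45 and 20.88, against 26.52 and 20.31) overlapped. NCL, the coding host for nucleolin, was at 229.38 and 212.36 against 301.01 and 244.48 (log2 fold change 0.30, limma adjusted p = 0.816). NOP58, a core protein of C/D particles, was at 31.25 and 27.11 against 39.05 and 31.85 (log2 fold change 0.27, limma adjusted p = 0.867). Its partner NOP56, at 81.78 and 64.19 against 105.86 and 69.02, had overlapping groups. Others went the other way, with overlapping groups. SNHG25 was at 10.02 and 5.57 against 8.56 and 1.41 (log2 fold change −0.83, limma adjusted p = 0.921). The snoRNP protein GAR1 was at 34.31 and 19.14 against 27.97 and 18.56 (log2 fold change −0.16, limma adjusted p = 0.975). SNHG9, SNHG20 and DKC1 had positive log2 fold changes and overlapping groups.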
